A study of Rattus norvegicus with 8 samples.

Results

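Csf1r, Csf1 and Il34 are 3 of the 32623 genes counted in single cells of the rat spinal cord. They were taken by symbol, whatever their level, and all 3 were detected. Csf1r (ENSRNOG00000018414) encodes the receptor tyrosine kinase for both ligands, Csf1 (ENSRNOG00000018659) encodes colony-stimulating factor 1 and Il34 (ENSRNOG00000017602) encodes interleukin 34. The cells kept after quality control held 177566 unique molecular identifiers (UMIs, which mark single captured RNA molecules) of Csf1r, 21328 of Csf1 and 463 of Il34.

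Microglia, the resident macrophages of the cord, and the macrophages that arise from blood monocytes carry the Csf1 receptor at their surface and depend on its signal to survive and divide. Binding of a ligand pairs receptor molecules, which then phosphorylate each other and start signalling through adaptors and kinases to PI3 kinase, Erk and Stat pathways. Csf1 and interleukin 34 are unrelated in sequence but bind the same receptor, and in the healthy brain they are made in different places.

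The cord came from 8-week-old rats, which the study's methods give as female Wistar, 7 days after surgery, as a segment of 10 mm. Per the same methods, contusion at T9 used a falling weight of 10 g, whose height was 12.5 mm for mild, 25 mm for moderate and 50 mm for severe injury. The sham group had laminectomy alone, so that it carried the same opening of the bone without contusion. Each group had 2 libraries, called replicates 1 and 2, and the labels do not say how many animals each holds, so that p-values measure the spread between libraries only.

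Of 68658 deposited cells, 55460 were kept (2336 to 10016 per library), with 23535282 to 99708000 UMIs per library. Sham replicate 1 stood apart. It had a median of 2745 UMIs per cell against 6152.5 to 10838 in the other 7, and 4257 of its 9192 kept cells passed the neutrophil gate, against 1 of 2336 in sham replicate 2. Of 55110 distinct cell barcodes, 344 occurred in 2 or more libraries. Cells were assigned to types by marker genes that include none of the 3 members, and 9957 cells (18%) passed no gate. Markers of neural cells passed in few of them, with 55 neurons and 111 astrocytes, so that the suspension was mainly one of immune and glial lineage cells and levels in neurons and astrocytes rest on very few cells.

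Csf1r was counted almost only in macrophages/microglia. These 27637 cells, 49.8% of the kept cells, held 97.5% of all Csf1r UMIs, and 83.1% to 99.8% in a single library. Another 1.60% lay in cells that passed no gate, 0.272% in oligodendrocytes and 0.263% in neutrophils. Csf1 was spread more widely. Macrophages/microglia held 72.4% of its UMIs, oligodendrocytes 8.33%, neutrophils 4.76%, fibroblasts 4.09% and oligodendrocyte precursors 1.97%. With types given by clusters the neutrophil share was 9.68%, above the 8.27% of oligodendrocytes, and by gates it ran from 0 to 32.7% in single libraries. Sham replicate 1 was the exception, with 5.37% of its Csf1 UMIs in macrophages/microglia. Il34 lay mainly elsewhere, with 56.8% of its UMIs in fibroblasts, 17.1% in pericytes/smooth muscle cells and 13.6% in macrophages/microglia. Neutrophils, T cells/NK cells, B cells, astrocytes and neurons held none of the 463 Il34 UMIs.

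**Figure D1:**
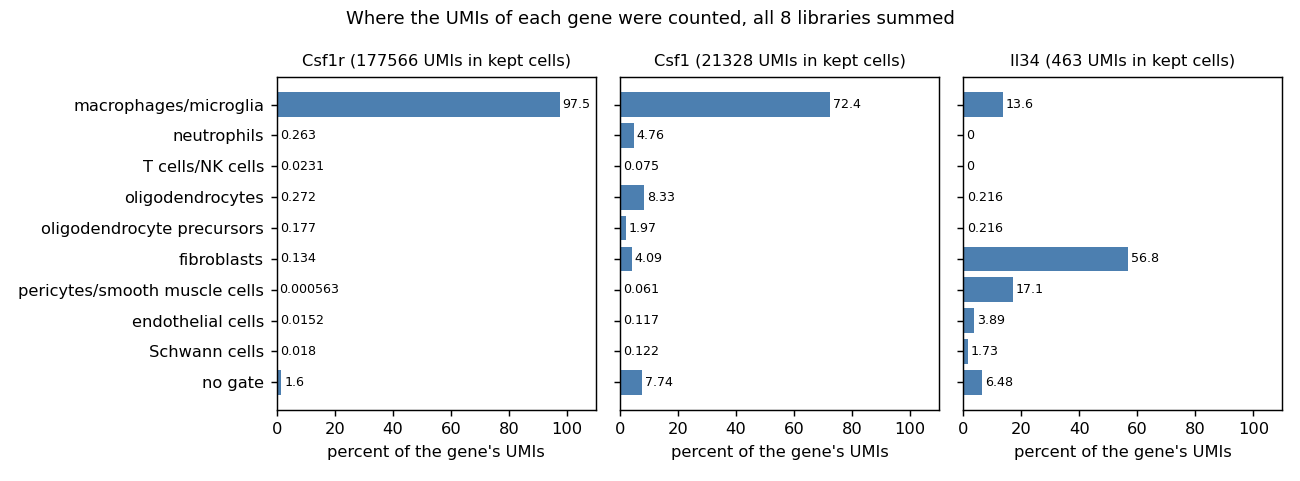
The share of each gene's UMIs (percent, x axis) that lay in each marker-gated cell type, with all 8 libraries summed; dendritic, B, erythroid and ependymal cells, astrocytes and neurons, which held under 1% of each gene, are not drawn. Csf1r sits in macrophages/microglia (97.5%), Csf1 mainly there (72.4%) and Il34 mainly in fibroblasts (56.8%) and pericytes/smooth muscle cells (17.1%).

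Levels are given as counts per 1e6 UMIs of a cell type in a library (CPM), where 20 or more such cells were present. Macrophages/microglia were divided by a score of microglia markers (among them P2ry12, Tmem119 and Sall1) against a score of markers of other macrophages (among them Ms4a7, F13a1, Gpnmb and Arg1). This gave 5433 microglia-marker cells, 14449 macrophage-marker cells and 7755 cells between the gates. The cut is a range and not a type, since 7857 of the 27637 cells lay within 0.05 of a limit of the score.  The summed level of the 8 microglia markers was 534 to 1051 CPM in microglia-marker cells and 21.9 to 114 CPM in macrophage-marker cells. The 9 markers of other macrophages summed to 410 to 2053 CPM and 4487 to 8431 CPM in these gates. In microglia-marker cells of every injured library they exceeded the summed microglia markers. Both scores define the gates, so these sums describe the cut and do not test it.

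Ordered by mean level, Csf1r was highest in microglia-marker cells, at 989 CPM ± 244 (SD, n = 8). Macrophage-marker cells had 296 CPM ± 97.4 (SD, n = 8) and neutrophils 89.8 CPM ± 72.1 (SD, n = 7). Every other type with at least 3 such libraries had a mean of 2.81 to 19.0 CPM. Within libraries the level in microglia-marker cells exceeded that in macrophage-marker cells by 1.77 ± 0.49 (SD) on the log2(CPM + 1) scale, in 8 of 8 libraries, with p = 0.00781 in an exact two-sided sign-flip permutation test, the smallest p that 8 libraries allow. Macrophage-marker cells exceeded neutrophils by 2.10 ± 1.46 (SD) in 7 of 7 libraries, with p = 0.0156 in the same exact test. After adjustment over the 29 pairs compared for the 3 genes, both had an adjusted p of 0.0906, and no pair of types passed 0.05 after adjustment. At an unadjusted p under 0.05, 6 pairs passed. Among the types from Schwann cells to B cells, neighbours in the order did not differ beyond their spread.

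The same contrast appeared in single cells. After each cell had been thinned to 1000 UMIs, 61.1% of microglia-marker cells held a Csf1r UMI, with 44.5% to 74.0% in single libraries (96.7% before thinning). For macrophage-marker cells the share was 23.9%, with 15.4% to 31.4% in single libraries (84.2% before thinning). Erythroid cells, used as cells that should lack the receptor, gave 0.624% with a 95% Wilson interval of 0.303 to 1.28%. Their share was 2.33% in sham replicate 1, 0% in severe replicate 1 and 0.535% in severe replicate 2. The last of these libraries held 994 of the 1224 erythroid cells. Median depths were 9770, 11579 and 6617 UMIs in the 3 types. Thinned shares and their intervals cover counting error only.

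Free RNA in the suspension gives low counts in cells that do not express a gene. Csf1r in oligodendrocytes was a median of 1.90% of its level in macrophages/microglia of the same library, and the 9 macrophage/microglia gate markers were at 1.89% there. In oligodendrocyte precursors both were close as well, at 1.45% and 1.39%, and in fibroblasts they were 1.71% and 1.92%. Whether these levels came from free RNA or from the cells themselves was not tested. A cell passed a gate only where the score of that type led the scores of all others. The gates therefore limit the 9 markers outside macrophages/microglia by construction. Csf1r is in no marker list and was not limited in this way. For this reason the markers cannot show how much Csf1r free RNA would give in any of these types, neutrophils included. In neutrophils Csf1r was at a median of 20.2% of the macrophage/microglia level and the gate markers were at 3.33%. Csf1r still lay within the range of the 9 single markers in 7 of 7 libraries. The summed markers of other macrophages reached 1544 to 2644 CPM in the neutrophils of injured libraries. Macrophages/microglia of those libraries had 3627 to 7019 CPM. For sham replicate 1 these sums were 220 and 1497 CPM. The source of neutrophil Csf1r was not tested.

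Among the clusters in which most cells passed a gate and nearly all of those were macrophages/microglia, Csf1r ran from 982 CPM in the cluster led by the complement genes C1qb, C1qa and C1qc to 148 CPM in a cluster led by the chemokine genes Cxcl1 and Cxcl2 and by Gdf15, of which 69.8% came from severe replicate 2. A dividing cluster led by Top2a and Mki67 had 885 CPM and a cluster led by Cst3, Sparc and P2ry12, of which 85.1% came from sham replicate 2, had 879 CPM. The second dividing cluster, led by Ube2c and Cdkn3 and with 92.8% macrophage-marker cells, had 273 CPM. So dividing cells were found at both levels of the receptor. In 2 further clusters, led by MHC class II genes, 108 of 472 and 32 of 281 cells passed any gate, with macrophages/microglia at 77.8% and 62.5% of those. Their Csf1r was 135 and 52.1 CPM, and they are not named here. These values describe clusters built from the same counts and were not tested.

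Csf1r in all macrophages/microglia was 688 and 774 CPM in the sham libraries and 620 and 629 CPM in the mild libraries. It was 587 and 445 CPM in the moderate libraries and 297 and 288 CPM in the severe libraries. On this scale each group lay below the next milder one without overlap. The share of all genes whose libraries separate in such ways is not given, here or for later separations. None of these separations is therefore read as unusual. CPM depends on what else a library holds, and in the severe group the median gene itself fell, by 0.61 on the log2 scale against sham when only library size was used. Trimmed-mean (TMM) scaling brought this to -0.10, and edgeR's test was run on that scale. There the sham libraries (542 and 763) overlapped with the mild (589 and 611) and moderate (554 and 413) libraries, and the severe libraries (365 and 373) remained the lowest. In CPM the 9 gate markers of this population summed to 22726.5 and 22055.4 in sham and to 10238.8 and 13957.4 in severe libraries. In mild and moderate libraries they were 13741.9 to 20488.0. Their part in the Csf1r values was not tested.

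On the TMM scale the log2 change of Csf1r in macrophages/microglia against sham was -0.12 ± 0.27 (SE) in the mild group, -0.43 ± 0.27 (SE) in the moderate group and -0.82 ± 0.27 (SE) in the severe group. The adjusted p-values over all 13288 genes were 0.791, 0.365 and 0.0841 in edgeR's quasi-likelihood test with Benjamini-Hochberg adjustment. Severe against mild gave -0.70 ± 0.27 (SE) with an adjusted p of 0.199. None of these passed 0.05. Relative to the median gene, the severe change was -0.73 with TMM and -0.71 with library size alone. Scaling shifts all genes of a library together, so these values come out close by construction and do not test the scaling. The change itself and its call depended on the scaling: with library size alone the log2 change was -1.32 and the adjusted p from edgeR was 0.0149. DESeq2 gave -0.83 and 0.0253. Without sham replicate 1, edgeR gave -1.03 and 0.0383, and without sham replicate 2 it gave -0.51 and 0.217.

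**Figure D2:**
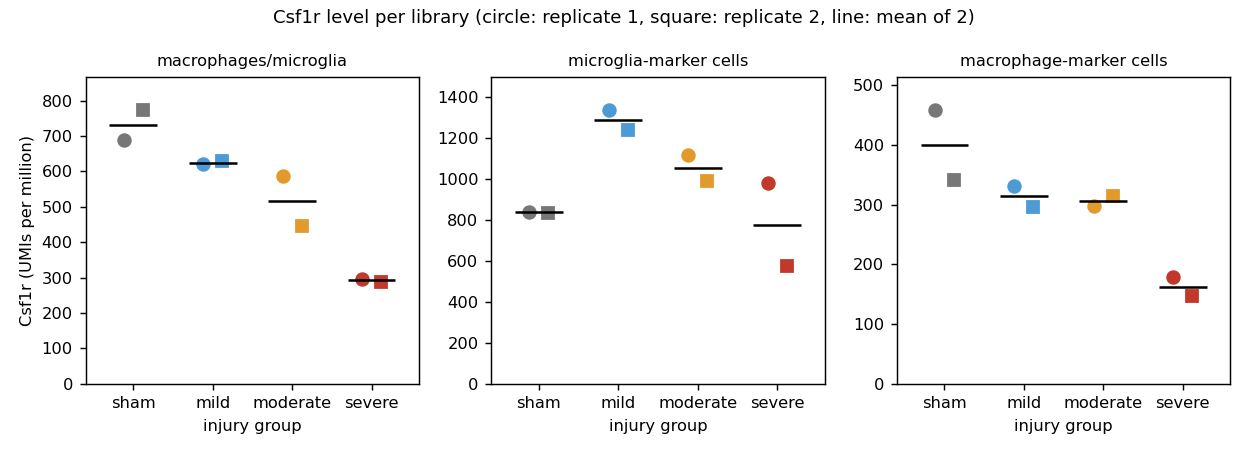
Csf1r in CPM (y axes, from 0) in each library by injury group (x axes) for all macrophages/microglia and for the microglia-marker and macrophage-marker cells among them; circles are replicate 1, squares replicate 2 and lines the mean of 2. In all macrophages/microglia and in macrophage-marker cells the severe libraries are the lowest (288 to 297 and 146 to 179), while in microglia-marker cells the mild libraries are the highest (1239 and 1337).

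The 2 gates differed from each other in where the injured libraries lay against sham. In microglia-marker cells, Csf1r was 840 and 836 CPM in sham, 1337 and 1239 CPM in mild, 1115 and 990 CPM in moderate and 980 and 574 CPM in severe libraries. Both mild libraries and both moderate libraries lay above both sham libraries, while the severe libraries lay on either side. On TMM-scaled values moderate replicate 2 (872) lay below sham replicate 2 (919). Moderate replicate 2 had 68 of these cells and severe replicate 1 had 98. Markers of other macrophages summed to 410 and 506 CPM in sham and to 1184 to 2053 CPM in mild and moderate libraries. In severe libraries they were 676 and 694 CPM. The 9 macrophage/microglia gate markers were 23693 and 22846 CPM in sham and 21488 to 30581 CPM in injured libraries. Neutrophil markers were 4002 CPM in sham replicate 1 and 44.1 to 196 CPM elsewhere. Their part was not tested. In macrophage-marker cells Csf1r was 459 and 342 CPM in sham, 331 and 296 CPM in mild, 297 and 315 CPM in moderate and 179 and 146 CPM in severe libraries. There all 6 injured libraries lay below both sham libraries, and the severe libraries lay below all others. As above, the share of all genes with such separations is not given.

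None of these gate differences passed edgeR's adjusted threshold. In microglia-marker cells the log2 changes against sham were 0.58 ± 0.32 (SE) in mild, 0.22 ± 0.32 (SE) in moderate and 0.14 ± 0.32 (SE) in severe, with adjusted p-values of 0.327, 0.808 and 0.850 from edgeR. The severe value changed sign, to -0.11, with library size alone. Relative to the median gene it was 0.27 with TMM and 0.29 with library size, which come out close by construction. In macrophage-marker cells they were -0.23 ± 0.23 (SE), -0.31 ± 0.23 (SE) and -0.81 ± 0.24 (SE), with adjusted p-values of 0.578, 0.535 and 0.0833 from edgeR. The severe fall passed with DESeq2 (adjusted p = 0.000544), with library size alone (0.0249) and with a stricter gate (0.0254). Sham macrophage-marker cells were few, 118 and 103, and in sham replicate 1 they carried 3617 CPM of the 9 neutrophil markers against 126 to 449 CPM in the other libraries. Both sham libraries of this gate also stood apart in other markers. The 8 dendritic cell markers summed to 1145 and 681 CPM in sham against 86.4 to 191 CPM in the injured libraries, and the 7 B cell markers to 167 and 124 CPM against 9.25 to 16.4 CPM. The microglia markers summed to 114 and 101 CPM in sham against 21.9 to 58.2 CPM. The 9 macrophage/microglia gate markers themselves summed to 23613 and 13547 CPM in sham and to 6558 and 6934 CPM in severe libraries. In mild and moderate libraries they were 8547 to 12329 CPM. The part of any of these markers in the Csf1r levels was not tested.

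The gap between the gates was larger in every injured library than in either sham library. Within a library, microglia-marker cells exceeded macrophage-marker cells by 0.87 and 1.29 on the log2(CPM + 1) scale in sham replicates 1 and 2. In the injured libraries the gap was 1.65 to 2.45, above both sham libraries in 6 of 6. The mean gap was 2.01 ± 0.26 (SD, n = 6) after injury and 1.08 ± 0.29 (SD, n = 2) in sham, a difference of 0.93. An exact two-sided permutation test gave p = 0.0714, the smallest that 6 against 2 libraries can give, and 0.143 after adjustment over the 2 genes tested. On TMM-scaled values the difference was 0.75, with the same exact p of 0.0714. The sham gaps use the macrophage-marker cells whose dendritic, B cell and microglia markers were higher, as given above, and the part of these in the gap was not tested.

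The share of microglia-marker cells also differed between libraries. Of macrophages/microglia they made up 36.7% and 83.1% in sham, 9.73% and 16.1% in mild, 19.0% and 1.85% in moderate and 8.72% and 18.3% in severe libraries. A value for all macrophages/microglia therefore mixes the shares of the gates with the level within each gate. The gates are cut by marker scores. Whether the gate of a cell changed with its marker levels after injury was not tested. When the 3 gates were given the same weights in every library (24.2% microglia-marker, 47.8% macrophage-marker and 28.1% between the gates), mean Csf1r was 547 CPM ± 59.4 (SD, n = 2) in sham, 717 CPM ± 39.1 (SD, n = 2) in mild, 641 CPM ± 2.40 (SD, n = 2) in moderate and 410 CPM ± 126 (SD, n = 2) in severe libraries. As measured, these means were 731, 625, 516 and 293 CPM. With the mix held fixed, mild and moderate libraries lay above both sham libraries and severe libraries below them, and this was not tested. In sham, the weight of 47.8% falls on macrophage-marker cells that were 17.5% and 4.91% of macrophages/microglia. Those few cells stood apart in other markers, as given above.

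Csf1r was also set against the drop height, taken as 0 mm for sham, over the 8 libraries. On TMM-scaled log2 values the relation in macrophage-marker cells had Pearson's r = -0.95 and Spearman's rho = -0.98, with exact permutation p-values of 0.000397 and 0.000794. Adjusted over the 6 relations computed, for 2 genes in 3 gates, these were 0.00238 and 0.00476. Leaving out the 2 severe libraries, the farthest from the median height, gave r = -0.81 with an exact permutation p of 0.0222 over the remaining 6. Among the 6 injured libraries alone, without the sham cells that stood apart in other markers, r was -0.96, with an exact permutation p of 0.0111. With library size alone r was -0.93, and -0.71 without the severe pair, with an exact permutation p of 0.0889. The macrophage/microglia gate markers in these cells were also lower in severe than in sham libraries, as given above. Their relation with height was not tested.

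On the TMM scale all macrophages/microglia and microglia-marker cells gave other values. For all macrophages/microglia r was -0.88 and rho -0.78, with adjusted exact permutation p-values of 0.0107 and 0.0698. Without the 2 severe libraries r was -0.67 with an exact permutation p of 0.156, so that on this scale the relation depended on those libraries. Among the 6 injured libraries alone r was -0.91, with an exact permutation p of 0.0111. With library size alone r was -0.97, and -0.86 without the severe pair, with an exact permutation p of 0.0222. In microglia-marker cells r was -0.07 and rho -0.10, with exact permutation p-values of 0.865 and 0.861. Over the 6 injured libraries of this gate r was -0.63, with an exact permutation p of 0.178. With library size alone that r was -0.81, with an exact permutation p of 0.0111. The value over all 8 libraries thus does not show that Csf1r was unrelated to height after injury in this gate. No relation of Csf1 with height passed after adjustment in any of the 3 gates, with r between 0.29 and 0.60. In macrophage-marker cells rho was 0.83, with an exact permutation p of 0.0198 and 0.0595 adjusted. Without the 2 severe libraries r was 0.92 there, 0.80 in all macrophages/microglia and 0.72 in microglia-marker cells. The unadjusted exact permutation p-values were 0.0222, 0.0444 and 0.133. Among the injured libraries alone r of Csf1 lay between -0.14 and 0.07.

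**Figure D3:**
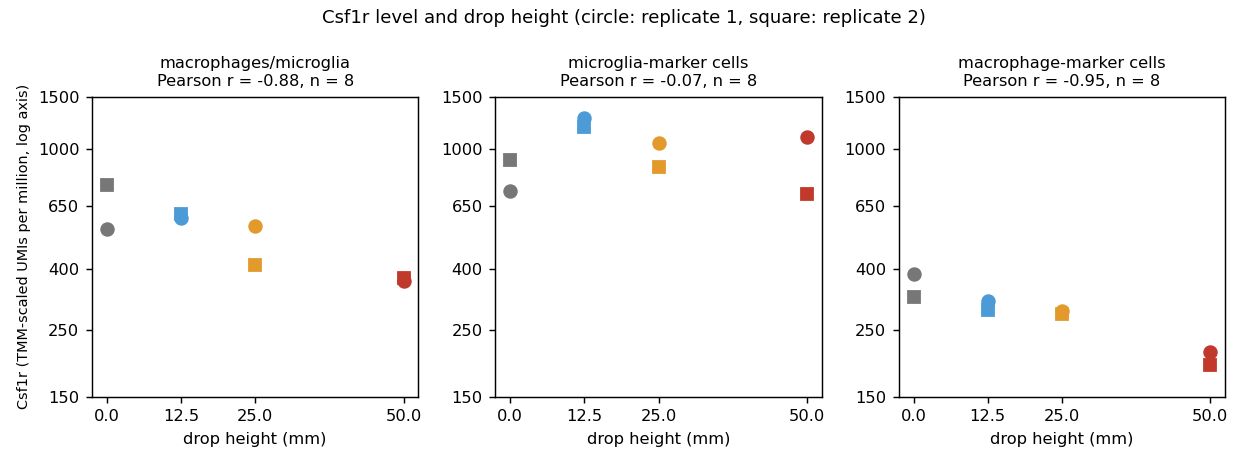
Csf1r in TMM-scaled CPM (y axes, log scale) against drop height in mm (x axes, 0 for sham) in each of 8 libraries, for the 3 gates; circles are replicate 1 and squares replicate 2. The points of macrophage-marker cells fall with height (r = -0.95), those of all macrophages/microglia fall mainly at 50 mm (r = -0.88) and those of microglia-marker cells have r = -0.07.

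Csf1, the first ligand, was highest in neutrophils, at 162 CPM ± 125 (SD, n = 7). In the next 4 types its mean lay between 37.0 and 41.9 CPM (microglia-marker cells, fibroblasts, macrophage-marker cells and oligodendrocytes), and these did not differ from their neighbours beyond the spread. Oligodendrocyte precursors had 16.9 CPM ± 7.21 (SD, n = 8). Within libraries neutrophils exceeded microglia-marker cells by 1.76 ± 1.21 (SD) on the log2(CPM + 1) scale in 6 of 7 libraries, with p = 0.0313 in the exact sign-flip permutation test and 0.151 adjusted. Oligodendrocytes, which make myelin, exceeded their precursors by 1.14 ± 0.49 (SD) in 8 of 8 libraries, with p = 0.00781 in the exact test and 0.0906 adjusted. Microglia-marker and macrophage-marker cells differed by 0.30 ± 0.75 (SD), in 4 of 8 libraries in this direction, with p = 0.289 in the exact test.

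Neutrophil Csf1 varied strongly between libraries. It was 37.9 CPM in sham replicate 1, 145 and 83.2 CPM in mild, 55.4 and 398 CPM in moderate and 226 and 187 CPM in severe libraries. Sham replicate 1, which held 4257 of the 6415 neutrophils, was the lowest, and sham replicate 2 had a single neutrophil. No test against sham was therefore possible. Severe against mild, a contrast added after the data had been seen, gave a log2 change of 1.22 ± 0.60 (SE) with an adjusted p of 0.277 in edgeR, where 4.62% of 5698 genes passed. Some of these libraries had few molecules, such as 7 UMIs in moderate replicate 1 and 11 in mild replicate 2. After thinning to 1000 UMIs, 3.78% of the neutrophils of sham replicate 1 held a Csf1 UMI. In the 5 injured libraries with a value the share was 7.41% to 24.8%, and the mean over the 6 libraries was 13.3% ± 7.43 (SD). In macrophages/microglia the mean over 8 libraries was 3.58% ± 2.13 (SD). With all cells pooled, where sham replicate 1 gives most neutrophils, the shares were 6.44% and 4.11%, and 0.0891% of erythroid cells held a UMI. The median depth of neutrophils was 2005 UMIs, and 1351 of them were too shallow to be thinned to 1000 UMIs. At 500 UMIs 0 were too shallow. Sham replicate 1 then had 2.26%, and moderate replicate 1, without a value at 1000 UMIs, had 1.92%. The other injured libraries had 5.41% to 12.7%, and the mean over 7 libraries was 6.98% ± 4.27 (SD). At this depth not every injured library lay above sham replicate 1.

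**Figure D4:**
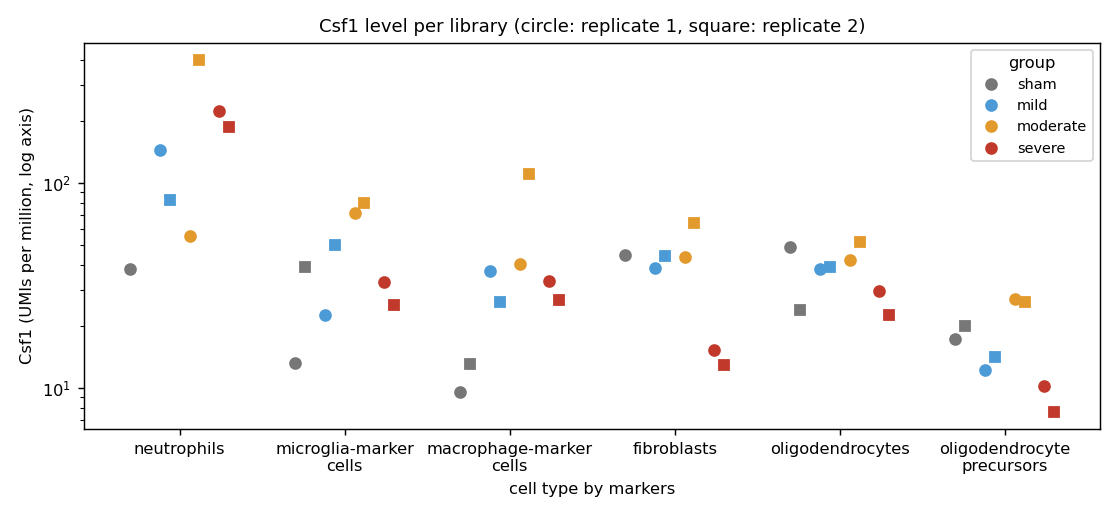
Csf1 in CPM (y axis, log scale) in 6 cell types (x axis), each point a library with 20 or more such cells, coloured by injury group; circles are replicate 1 and squares replicate 2. Neutrophil values range from 37.9 to 398, macrophage-marker values are lowest in the 2 sham libraries (9.52 and 13), and moderate replicate 2 is the highest point in neutrophils and in both groups of macrophages/microglia.

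In macrophage-marker cells, Csf1 was 9.52 and 13 CPM in sham libraries, 37.3 and 26.2 CPM in mild, 40.4 and 111 CPM in moderate and 33.3 and 26.9 CPM in severe libraries. All 6 injured libraries lay above both sham libraries. The sham values rest on 10 and 13 UMIs, in cells that also carried the higher dendritic and B cell markers given above. For the moderate libraries those sums were 119 and 98.7 CPM (dendritic) and 10.4 and 16.3 CPM (B cell), and their part in the difference was not tested. The log2 changes were 1.60 ± 0.51 (SE) in mild, 2.79 ± 0.50 (SE) in moderate and 1.89 ± 0.51 (SE) in severe, with adjusted p-values of 0.0968, 0.0437 and 0.0680 from edgeR over 12280 genes. So Csf1 rose in the moderate group alone by this test, by 6.93-fold, and 1 of the 6 tests of Csf1r and Csf1 against sham was called. Whether the 3 injured groups differ in this rise was not tested, other than severe against mild (0.29 ± 0.39 SE, adjusted p = 0.702 from edgeR). The background of calls was 4.19% of genes in mild, 0.912% in moderate and 4.24% in severe against sham, and 5.89% in severe against mild, where neither gene was called.

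The call was lost without any of 3 libraries. Without moderate replicate 2 the change was 1.97 with an adjusted p of 0.216, without sham replicate 1 it was 2.52 with 0.126 and without sham replicate 2 it was 3.16 with 0.0536, all from edgeR. The replicate number as a block gave 2.74 and 0.0502. DESeq2 called Csf1 in all 3 injured groups, with log2 changes of 1.52, 2.73 and 1.81. The number of all genes called by DESeq2 is given below for all kept cells only. Its calls in other cells therefore have no background beside them, here or later.

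Microglia-marker cells gave a less separated picture, with Csf1 at 13.2 and 39.1 CPM in sham, 22.7 and 49.7 CPM in mild, 71.8 and 79.9 CPM in moderate and 33.1 and 25.5 CPM in severe libraries. The moderate libraries lay above all others. The change of 1.28 ± 0.53 (SE) in the moderate group had an adjusted p of 0.311 in edgeR, and none of the 6 tests of Csf1r and Csf1 against sham was called in this gate by edgeR or DESeq2, with 1 at an unadjusted p under 0.05. Without sham replicate 2 all 3 injured groups passed, with log2 changes of 1.63, 2.60 and 1.58, and without sham replicate 1 the changes were -0.29, 0.67 and -0.35 and none passed. The background was 0.697% of 10467 genes in mild, 0.22% in moderate and 1.5% in severe against sham, and 2.13% in severe against mild, where neither gene was called.

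Over all macrophages/microglia, Csf1 was 15.2 and 35.9 CPM in sham, 34.1 and 39.2 CPM in mild, 53.0 and 105 CPM in moderate and 30.9 and 26.1 CPM in severe libraries. The moderate change of 1.62 ± 0.50 (SE) had an adjusted p of 0.105 in edgeR and 0.0182 in DESeq2. Of the 6 tests of Csf1r and Csf1 against sham in this population, edgeR called 0, with 2 at an unadjusted p under 0.05, and DESeq2 called 2. The background of edgeR calls was 8.17% of genes in mild, 3.67% in moderate and 10.2% in severe against sham, and 2.51% in severe against mild. Without sham replicate 2, whose cells were mostly microglia-marker cells, Csf1 passed in all 3 injured groups, with log2 changes of 1.60, 2.66 and 1.63 and adjusted p-values of 0.0481, 0.0187 and 0.0394 from edgeR. Without sham replicate 1 the changes were 0.01, 1.04 and 0.03 and none passed.

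Csf1 in oligodendrocytes ran from 22.6 to 51.4 CPM. It was 48.8 and 24.0 CPM in sham, 38.0 and 38.9 CPM in mild, 42.0 and 51.4 CPM in moderate and 29.9 and 22.6 CPM in severe libraries. The groups overlapped with sham in each case, and the log2 changes of -0.05, 0.03 and -0.41 had adjusted p-values of 0.940, 0.976 and 0.463 from edgeR. Sham replicate 2, the lower sham value, had 36 of these cells. Both severe libraries lay below both mild libraries, with a log2 change of -0.36 ± 0.30 (SE) and an adjusted p of 0.535 from edgeR. Background calls were 8.47%, 4.3% and 1.29% of 9725 genes against sham and 3.18% in severe against mild.

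Fibroblasts, which help to form the scar of a lesion, expressed both ligands. Csf1 was 44.7 CPM in sham replicate 1, 38.6 and 43.9 CPM in mild, 43.4 and 63.9 CPM in moderate and 15.3 and 12.9 CPM in severe libraries. The severe libraries were the lowest. Il34 was 18.3 CPM in sham replicate 1, 19.7 and 31.4 CPM in mild, 4.38 and 5.56 CPM in moderate and 4.37 and 5.30 CPM in severe libraries. Here the moderate and the severe libraries lay together, below mild and below sham replicate 1. Sham replicate 2 had 5 fibroblasts and was not used.

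Severe against mild in fibroblasts, also added after the data had been seen, gave for Il34 a log2 change of -2.01 ± 0.34 (SE) and an adjusted p of 0.0473 in edgeR, so that Il34 fell to 0.248 of its mild level. Csf1 had -1.19 ± 0.26 (SE) and 0.0753, and it passed in 3 of 12 alternatives, which were DESeq2 (-1.17, adjusted p = 0.0436), library size alone (-1.53, 0.0356) and no filter on low counts (-1.15, 0.0122). Il34 was 1 of 122 genes called of 11561 tested (1.06%). The call was lost with only the 2 groups in the fit (adjusted p = 0.0768), with a stricter gate (0.0652) and with clusters (0.257), and without any 1 of the 4 libraries (0.0855 to 0.194), while the log2 change stayed between -1.68 and -2.36. Beside it, the summed pericyte/smooth muscle markers in these fibroblasts were 314 and 129 CPM in mild and 1857 and 1240 CPM in severe libraries. The macrophage/microglia markers were 486 and 550 CPM in mild and 192 and 213 CPM in severe libraries. The part of either in the result was not tested.

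**Figure D5:**
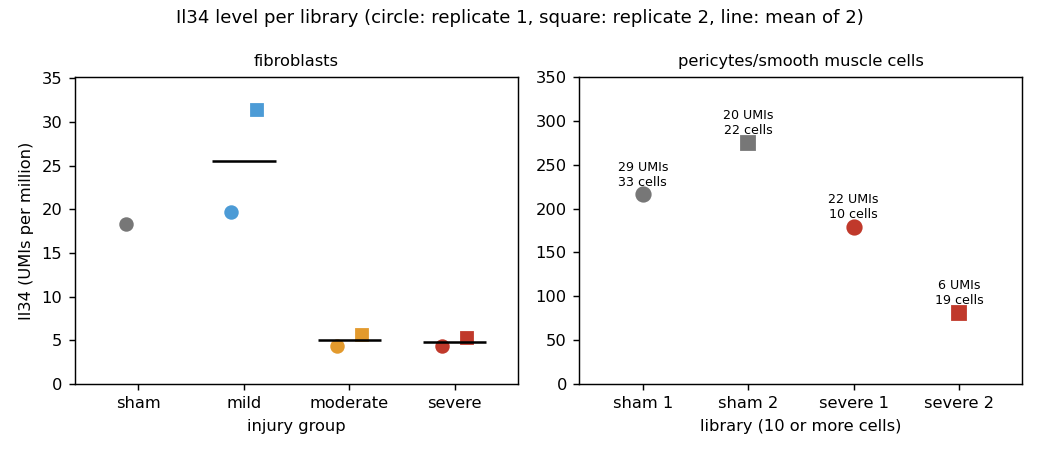
Il34 in CPM (y axes, from 0) in fibroblasts by injury group, for libraries with at least 20 cells, and in pericytes/smooth muscle cells for the 4 libraries with at least 10 cells, with the UMIs and cells behind each point; circles are replicate 1, squares replicate 2 and lines the mean of 2. Fibroblast values are 18.3 to 31.4 in sham and mild libraries and 4.37 to 5.56 in moderate and severe libraries, and pericyte values are 80.6 to 275.

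Pericytes/smooth muscle cells, the mural cells of vessels, had the highest Il34 level of any gated type but were only 86 cells. Sham replicates 1 and 2 gave 216 CPM (29 UMIs in 33 cells) and 275 CPM (20 UMIs in 22 cells). Severe replicates 1 and 2 gave 179 CPM (22 UMIs in 10 cells) and 80.6 CPM (6 UMIs in 19 cells). Mild and moderate libraries together gave 2 such cells, so no contrast was tested. Of the 80 cells deep enough to be thinned to 1000 UMIs, 16 held an Il34 UMI (95% Wilson interval of the share 12.7 to 30.0%). In fibroblasts the share was 0.921% (0.567 to 1.49%), and it was 0 of 5064 neutrophils, where 3 counts would give a share of cells with a UMI at this depth of 0.0592%. These mural cells held 1 Csf1r UMI in all. With types given by clusters no cluster was named for them, and fibroblasts then held 79.9% of Il34 UMIs.

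Il34 in macrophages/microglia was rare. Of its 63 UMIs there, 28 came from the 1745 microglia-marker cells of sham replicate 2, at 1.53 CPM, and the other microglia-marker libraries had 0 to 0.81 CPM. Macrophage-marker cells held 3 UMIs in all 8 libraries. Microglia-marker cells were the higher in 7 of 8 libraries, by 0.59 ± 0.41 (SD) on the log2(CPM + 1) scale, with p = 0.0156 in the exact sign-flip permutation test and 0.0906 adjusted. The macrophage-marker values had a median of 0 CPM. Outside sham replicate 2 the microglia-marker values rest on few UMIs. What 1 UMI gives in CPM differs between gates and libraries, so this comparison lies near the floor. Il34 did not pass the filter on low counts in this population or in either gate, and was tested in fibroblasts and in all kept cells only. Endothelial cells held 18 Il34 UMIs and Schwann cells 8, of which 6 came from sham replicate 1.

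In the sum of all kept cells, fewer cells of a type cannot be told apart from less RNA per cell. Csf1r was 102 and 720 CPM in sham libraries, a range that covered that of every injured group, and its severe change of -1.15 turned to 1.09 without sham replicate 2 and passed without sham replicate 1 (-1.98, adjusted p = 0.0339 from edgeR). Il34 was 2.71 and 2.12 CPM in sham, 1.19 and 0.58 CPM in mild, 0.42 and 0.20 CPM in moderate and 1.74 and 0.45 CPM in severe libraries, so that all injured libraries lay below both sham libraries. The moderate change of Il34 was -3.09 ± 0.79 (SE) with an adjusted p of 0.150 in edgeR, 0.0423 in edgeR without sham replicate 2 and 0.00293 in DESeq2. Of 9 tests of the 3 members against sham, edgeR called 0, with 2 at an unadjusted p under 0.05, and DESeq2 called 1. The edgeR background was 0% of 15885 genes in mild and in moderate, 0.554% in severe against sham and 0.466% in severe against mild, while 3715, 3045 and 3057 genes had an unadjusted p under 0.05 against sham and DESeq2 called 2076, 1567 and 1360.

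In oligodendrocyte precursors edgeR called Csf1r lower in severe than in mild libraries, at -2.55 ± 0.65 (SE) with an adjusted p of 0.0458. The levels were 12.8 and 15 CPM in mild and 0 and 2.44 CPM in severe libraries. Relative to macrophages/microglia, Csf1r and the gate markers were close in these cells, as given above, and the source was not tested. The call was lost without any 1 of the 4 libraries, with log2 changes of -8.35 to -2.16. It was also lost with DESeq2, the replicate block or a stricter gate. The background of calls was 3.28% of 10894 genes. Against sham, where the background was 5.15%, 5.47% and 7.62%, edgeR called 0 of 6 tests of Csf1r and Csf1 in these cells, with 2 at an unadjusted p under 0.05, and DESeq2 called 0. Without the filter on low counts edgeR called Csf1r higher there in mild (2.30) and moderate (2.77). In fibroblasts Csf1r gave -2.68 ± 0.50 (SE) with an adjusted p of 0.0581, and in neutrophils -1.78 ± 0.54 (SE) with 0.0603, both from edgeR. The fibroblast change passed in 3 of 12 alternatives, which were DESeq2 (adjusted p = 0.00764), library size alone (0.0287) and no filter on low counts (8.58e-05). The neutrophil change passed in 6 of 12, with log2 changes between -2.91 and -1.09 over all 12, and its lowest adjusted p from edgeR was 0.00144, without severe replicate 2. T cells/NK cells gave -2.14 ± 0.98 (SE) with 0.286, beside a background of 3.01% of 6576 genes. In neutrophils Csf1r was 157 and 204 CPM in mild, 119 and 48.8 CPM in moderate, 16.1 and 64.5 CPM in severe libraries and 19.1 CPM in sham replicate 1. The summed macrophage/microglia markers in these neutrophils were 1611 and 1595 CPM in mild and 592 and 1065 CPM in severe libraries, and their part in the change was not tested.

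Other genes of the pathway were described from lists chosen with earlier results of these data known. Of 44 listed genes 40 were tested in macrophages/microglia. Against sham 1 rose and 0 fell in mild (2.5%), 2 rose and 0 fell in moderate (5.0%), and 1 rose and 3 fell in severe (10.0%), beside the backgrounds above of 8.17%, 3.67% and 10.2%. Severe against mild gave 0 calls among them in edgeR, with 9 at an unadjusted p under 0.05 and 6 calls in DESeq2. DESeq2 called 4, 3 and 11 against sham. The backgrounds above are those of edgeR, and the share of all genes called by DESeq2 in these cells is not given.

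Of the 7 transcription factors of the lineage described here, Maf fell in the severe group by 1.5 on the log2 scale (adjusted p = 0.0384 from edgeR). The call was lost in 4 of 12 alternatives, among them without sham replicate 2 (adjusted p = 0.0611), severe replicate 1 (0.0680) or severe replicate 2 (0.149). Spi1, Runx1, Irf8, Cebpa, Cebpb and Ets2 did not pass in any of the 3 groups. The median of the 7 was -0.03, 0.30 and 0.83 in mild, moderate and severe, beside -0.02, 0.02 and -0.10 over all genes.

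Of 19 signalling and adaptor genes described here, Fyn, a Src-family kinase gene, was called in all 3 injured groups. Fyn rose by 1.54, 1.82 and 1.54 on the log2 scale in mild, moderate and severe, with adjusted p-values of 0.0447, 0.0429 and 0.0391 from edgeR. These calls were lost in 7, 7 and 6 of 12 alternatives. With clusters the changes were 0.82, 1.07 and 0.90 (adjusted p of 0.349, 0.303 and 0.309), and each call was lost without sham replicate 2 or without either library of its injured group (adjusted p of 0.0501 to 0.289). In microglia-marker cells Fyn was 5.82 and 10.4 CPM in sham, 4.37 and 7.65 CPM in mild, 20.2 and 29.8 CPM in moderate and 5.65 and 3.97 CPM in severe libraries. In macrophage-marker cells it was 37.1 and 28.1 CPM in sham, 70.1 and 45.2 CPM in mild, 55.1 and 63.6 CPM in moderate and 44.8 and 28.2 CPM in severe libraries. The severe libraries thus overlapped with sham or lay below it in each gate, edgeR called Fyn in neither gate, and the part of the mix of gates in the pooled change was not tested.

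Syk, a tyrosine kinase that acts downstream of Tyrobp, rose by 1.18 in the moderate group (adjusted p = 0.0326), and Pik3cg, a PI3 kinase catalytic subunit, fell by 1.00 in the severe group (adjusted p = 0.0465), both from edgeR. The Syk call was lost in 5 of 12 alternatives, among them without moderate replicate 1 (0.0961) or 2 (0.214). The Pik3cg call was lost in 6 of 12, among them without sham replicate 2 (0.101), severe replicate 1 (0.220) or severe replicate 2 (0.0620). The median of the 19 signalling and adaptor genes was -0.04, -0.02 and 0.05, beside the same medians over all genes. In macrophages/microglia none of the 3 genes for shedding and other Il34 receptors (Adam17, Ptprz1, Sdc1) passed, and none of the 5 tested ligand genes did. Among 6 tested receptors of the family, Pdgfra, a marker of oligodendrocyte precursors and fibroblasts, fell by 3.93 in the severe group (adjusted p = 0.0406 from edgeR). Its level was very low, at 0.947 and 0.366 CPM in sham and 0 and 0.0307 CPM in severe libraries. The change therefore rests on few molecules. The call was lost in 7 of 11 alternatives, among them without sham replicate 1 (0.0676), severe replicate 1 (0.133) or severe replicate 2 (0.123). The summed oligodendrocyte precursor markers in the same cells were 20.5 and 17.5 CPM in sham and 1.76 and 5.17 CPM in severe libraries, and their part in that fall was not tested.

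In macrophage-marker cells Ccnd1, which encodes cyclin D1 of the early cell cycle, fell by 2.03 in severe against sham and by 1.16 in severe against mild, with adjusted p-values of 0.00877 and 0.0398 from edgeR. The first call was lost in 1 of 12 alternatives, without severe replicate 1 (-1.76, 0.0577). The second was lost in 6 of 12, with a stricter gate (-0.56, 0.324), with clusters (-0.35, 0.552) and without any 1 of the 4 libraries (0.0624 to 0.231). Maf fell by 2.21 in severe against sham (adjusted p = 0.0177), a call lost in 3 of 12 alternatives, among them without sham replicate 1 (0.0562) or severe replicate 2 (0.0912). Socs1, a feedback inhibitor of cytokine signalling, rose by 3.96 in severe against mild (0.0277), and its call was lost without mild replicate 1 (0.115), mild replicate 2 (0.182) or severe replicate 1 (0.113). Of 40 tested genes, 0 passed in mild and 0 in moderate with edgeR, beside backgrounds of 4.19% and 0.912%, with 11 and 6 at an unadjusted p under 0.05 and 2 and 1 called by DESeq2. In severe against sham 0 rose and 2 fell, and in severe against mild 1 rose and 1 fell, which is 5.0% in both beside backgrounds of 4.24% and 5.89%. In microglia-marker cells 0 of 36 tested genes passed in mild, moderate and severe against sham and in severe against mild with edgeR, beside backgrounds of 0.697%, 0.22%, 1.5% and 2.13%. There 4, 9, 5 and 4 had an unadjusted p under 0.05, and DESeq2 called 0, 2, 0 and 3.

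Listed genes were also called outside macrophages/microglia. Ptprz1, which encodes a receptor-type phosphatase that can bind interleukin 34, was 2609 and 2132 CPM in sham oligodendrocyte precursors, 667 and 767 CPM in mild, 663 and 889 CPM in moderate and 1012 and 668 CPM in severe libraries. All 6 injured libraries lay below both sham libraries. It fell by 1.73, 1.62 and 1.25 on the log2 scale, with adjusted p-values of 0.0188, 0.0137 and 0.0285 from edgeR, and these calls were lost in 3, 3 and 5 of 12 alternatives, among them without either library of the injured group (adjusted p of 0.0556 to 0.289) and, in severe, without sham replicate 1 (0.0951). In these cells 0 rose and 3 fell in mild (10.0%), 0 rose and 1 fell in moderate (3.33%) and 1 rose and 3 fell in severe (13.3%), of 30 tested, beside the backgrounds above of 5.15%, 5.47% and 7.62%. Kitlg, the ligand of the receptor Kit, was 13 and 16.8 CPM in sham oligodendrocytes, 2.47 and 1.65 CPM in mild, 6.82 and 7.71 CPM in moderate and 1.93 and 1.24 CPM in severe libraries. It fell by 2.74 in mild and 3.03 in severe (adjusted p = 0.00833 and 0.0295 from edgeR). Sham replicate 2 had 36 oligodendrocytes and severe replicate 1 had 68, so the Kitlg levels of these libraries rest on few molecules. The mild call was lost without sham replicate 1 (0.112) or mild replicate 1 (0.0726) or 2 (0.101), and the severe call was lost in 5 of 12 alternatives, among them without sham replicate 1 (0.244) or severe replicate 2 (0.268). Of 27 tested genes in oligodendrocytes, 1 rose and 2 fell in mild (11.1%), 2 rose and 0 fell in moderate (7.41%) and 0 rose and 1 fell in severe (3.7%), beside backgrounds of 8.47%, 4.3% and 1.29%.

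Over 80 sums of a type in a library, from 15 types, the genes whose log2(CPM + 10) followed Csf1r most closely among 7660 compared were C1qb, C1qa, Aif1 and C1qc, which served as gate markers, with Pearson's r of 0.95 to 0.96, and P2ry6, a nucleotide receptor gene, with 0.94. Those most like Csf1 were Snx18, Msrb1, Lta4h, Ero1a and Trib1, with r between 0.72 and 0.77. Those most like Il34 were Gjc1, Rem1, Inmt, Vtn and the gate marker Kcnj8, with r between 0.88 and 0.91. The sums of a library share its depth and its free RNA, and these values are a description across types.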

How the data were processed

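Spinal cord suspensions of 8 libraries were sequenced with 10x 3' v3 chemistry. The deposited files hold raw UMI counts per gene and cell, which the authors made with Cell Ranger against Rnor 6.0, and no normalised values were used. Cells were kept with at most 10% mitochondrial UMIs and with UMI and gene totals within 2 SD of the library mean, after the 7.7% with the highest doublet scores (scanpy 1.11.5) had been removed. Types were assigned by scores of 126 markers, with a minimum score of 0.2 and a lead of 0.1 over the next type.

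Counts were summed per library and type, with at least 20 cells, and tested over all genes with edgeR 4.0.16 (TMM, quasi-likelihood, Benjamini-Hochberg, threshold 0.05) in R 4.3.3, with all groups in a fit. Types were compared within libraries by exact sign-flip permutation of log2(CPM + 1). DESeq2 1.42.0, Seurat 5.3.0 clusters and the other settings of the closing section were alternatives. Named genes were the 3 members, listed pathway genes past the threshold (up to 4 a list) and the 5 genes most like each member. Members and lists were chosen with earlier results of these data known. Some listed genes are not reported here and were left out of the counts and medians of the lists, but not of the fits. Severe against mild outside macrophages/microglia, the scaling of the height relation and of the gap between gates, and the fixed mix of gates were added after seeing the data. The test scripts were tested on simulated data.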

Additional observations from a re-analysis of the deposited data

Results flagged for a closer look

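Csf1r in microglia-marker and macrophage-marker cells lay on opposite sides of sham in both libraries of the mild group and in both libraries of the moderate group, as CPM. The log2 changes were 0.58 in microglia-marker and -0.23 in macrophage-marker cells of the mild group, and 0.22 and -0.31 in the moderate group. The difference between the gates was not tested for each group, and over all injured libraries the exact permutation test gave p = 0.0714, the smallest it can give. On TMM-scaled values the moderate microglia-marker libraries overlapped with sham.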

How the results depend on the processing

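Log2 changes are given for each alternative. With library size alone the log2 change turned sign for Csf1r in all kept cells, mild against sham (0.082), Csf1 in all kept cells, mild against sham (0.017), Csf1 in macrophages/microglia, severe against mild (-0.36), Csf1r in microglia-marker cells, severe against sham (-0.11), Csf1 in macrophage-marker cells, severe against mild (-0.077) and Csf1r in oligodendrocytes, mild against sham (-0.0041). With the replicate block the log2 change turned sign for Csf1r in all kept cells, mild against sham (0.16), Csf1 in microglia-marker cells, severe against mild (0.067), Csf1r in oligodendrocytes, mild against sham (-0.088) and Csf1 in oligodendrocytes, mild against sham (0.025). With DESeq2 the log2 change turned sign for Csf1 in all kept cells, severe against mild (0.021), Csf1 in microglia-marker cells, severe against mild (0.014) and Csf1r in oligodendrocytes, mild against sham (-0.73). With only the 2 groups in the fit the log2 change turned sign for Csf1 in all kept cells, severe against mild (0.0023). Without the filter on low counts the log2 change turned sign for Csf1 in macrophages/microglia, severe against mild (-0.013), Csf1 in oligodendrocytes, mild against sham (0.018) and Csf1 in oligodendrocytes, moderate against sham (-0.025). With clusters the log2 change turned sign for Csf1 in macrophages/microglia, severe against mild (-0.062), Csf1r in oligodendrocytes, mild against sham (-0.87) and Csf1 in oligodendrocytes, moderate against sham (-0.0077). Without doublet removal the log2 change turned sign for Csf1r in oligodendrocytes, severe against sham (0.53). With a stricter gate the log2 change turned sign for Csf1r in oligodendrocyte precursors, severe against sham (1.14). With DESeq2 the call was gained for Csf1 in macrophages/microglia, moderate against sham (1.61), Csf1r in macrophages/microglia, severe against sham (-0.83), Csf1 in macrophage-marker cells, mild against sham (1.52), Csf1r in macrophage-marker cells, severe against sham (-0.89), Csf1 in macrophage-marker cells, severe against sham (1.81) and Csf1r in macrophage-marker cells, severe against mild (-0.59). Without the filter on low counts the call was gained for Csf1 in macrophages/microglia, moderate against sham (1.65). With library size alone the call was gained for Csf1r in macrophages/microglia, severe against sham (-1.32), Csf1r in macrophages/microglia, severe against mild (-1.09), Csf1r in macrophage-marker cells, severe against sham (-1.30) and Csf1r in macrophage-marker cells, severe against mild (-0.95). With a stricter gate the call was gained for Csf1r in macrophage-marker cells, severe against sham (-1.16). With library size alone the call was lost for Csf1 in macrophage-marker cells, moderate against sham (2.75). With the replicate block the call was lost for Csf1 in macrophage-marker cells, moderate against sham (2.74). With only the 2 groups in the fit the call was lost for Csf1 in macrophage-marker cells, moderate against sham (2.77) and Il34 in fibroblasts, severe against mild (-2.03). With clusters the call was lost for Csf1 in macrophage-marker cells, moderate against sham (3.19) and Il34 in fibroblasts, severe against mild (-1.68). With a stricter gate the call was lost for Il34 in fibroblasts, severe against mild (-1.87). The gained and lost calls above are those of Csf1r and Csf1 in macrophages/microglia and macrophage-marker cells and of Il34 in fibroblasts. Elsewhere with DESeq2 the call was gained for Il34 in all kept cells, moderate against sham (-3.09), Csf1r in fibroblasts, severe against mild (-2.67) and Csf1 in fibroblasts, severe against mild (-1.17). Elsewhere with DESeq2 the call was lost for Csf1r in oligodendrocyte precursors, severe against mild (-2.60), and the remaining settings changed further calls. The cause was not tested.

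Leaving out 1 library at a time, which leaves a group with 1 library assumed to vary like the others, gave a change of call or sign with these ranges of log2 change: Csf1r in all kept cells, mild against sham, -0.93 to 2.15, Csf1 in all kept cells, mild against sham, -0.18 to 0.070, Csf1r in all kept cells, moderate against sham, -1.20 to 1.88, Csf1r in all kept cells, severe against sham, -1.98 to 1.09, Csf1 in all kept cells, severe against sham, -0.30 to 0.090, Csf1 in all kept cells, severe against mild, -0.25 to 0.069, Il34 in all kept cells, severe against mild, -0.57 to 1.09, Csf1r in macrophages/microglia, mild against sham, -0.33 to 0.19, Csf1 in macrophages/microglia, mild against sham, 0.0074 to 1.60, Csf1 in macrophages/microglia, moderate against sham, 1.03 to 2.66, Csf1r in macrophages/microglia, severe against sham, -1.03 to -0.51, Csf1 in macrophages/microglia, severe against sham, 0.030 to 1.63, Csf1 in macrophages/microglia, severe against mild, -0.090 to 0.14. For the remaining results they were: Csf1 in microglia-marker cells, mild against sham, -0.36 to 1.63, Csf1r in microglia-marker cells, severe against sham, -0.19 to 0.42, Csf1 in microglia-marker cells, severe against sham, -0.35 to 1.58, Csf1 in microglia-marker cells, severe against mild, -0.49 to 0.65, Csf1 in macrophage-marker cells, moderate against sham, 1.97 to 3.32, Csf1r in oligodendrocytes, mild against sham, -1.51 to 0.87, Csf1 in oligodendrocytes, mild against sham, -0.25 to 0.63, Csf1r in oligodendrocytes, moderate against sham, -0.53 to 1.84, Csf1 in oligodendrocytes, moderate against sham, -0.21 to 0.71, Csf1 in oligodendrocytes, severe against sham, -0.63 to 0.26, Csf1r in oligodendrocyte precursors, severe against sham, -6.17 to 0.26, Il34 in fibroblasts, severe against mild, -2.34 to -1.69.

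The number of genes called in mild, moderate and severe against sham and in severe against mild, with the range over the alternatives, was 1086 (0 to 2698), 488 (0 to 2045), 1359 (269 to 2843), 334 (63 to 1547) in macrophages/microglia, 73 (0 to 1240), 23 (0 to 762), 157 (8 to 1221), 223 (49 to 831) in microglia-marker cells and 514 (0 to 1445), 112 (0 to 657), 521 (121 to 1408), 723 (94 to 1384) in macrophage-marker cells. The labels do not say whether a shared replicate number marks a shared animal or day. The correlation of replicate deviations ranged from -0.22 to 0.23 over the 6 pairs of groups, which cannot show whether libraries are paired. The replicate block turned the Csf1 call in macrophage-marker cells to an adjusted p of 0.0502 in edgeR. Depth limits Il34, with 463 UMIs, and Csf1 in sham macrophage-marker cells, with 10 and 13 UMIs.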
